A study of Oryza sativa Japonica Group with 4 samples.

Results

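Genes that package DNA, license its replication and drive the cell cycle were described in leaves of 2 rice lines under drought. The members were the rows of the deposited expression table whose gene description named histone H1, H2A, H2B, H3 or H4, minichromosome maintenance (MCM) proteins, proliferating cell nuclear antigen (PCNA), cyclins or cyclin-dependent kinases. Rows worded as acetylation, methylation, chaperone or cyclin-like F-box were dropped. Of 33744 genes, 391 matched these words, 218 were dropped and 173 remained. The 173 held 53 histone genes, 49 cyclin genes, 6 replication licensing genes (5 MCM and 1 PCNA) and 14 genes of cyclin-dependent kinases, their inhibitors and a regulatory subunit. A further 46 were F-box proteins whose description adds a cyclin-like domain in another word order, and 5 were other proteins, of which 2 tetracycline transporters and 2 ribosome recycling factors matched by letters alone and FRRP1, an E3 ligase that ubiquitinates H2B, matched by naming its target. These 51 genes were kept apart from the cyclins and histones.

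Histones H2A, H2B, H3 and H4 form the protein core around which DNA is wound, and H1 binds the DNA between cores. Dividing plant cells make most of their core histones while DNA is copied, after MCM proteins have been loaded on replication origins and PCNA has been placed as a sliding clamp for the polymerases. Cyclins bind cyclin-dependent kinases and turn them on at set points of the cycle, D types at its start, A types during replication and B types at entry into mitosis. In grass leaves division takes place at the base of the growing blade, and mature blade cells no longer divide.

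The study used Oryza sativa, Japonica group, seedlings that were 14 days old and under drought for 6 h, and RNA came from leaves. One line was OE13 and the other OE13-2KR/oswox13-1, with 2 libraries each, and the labels call the first resistant and the second sensitive to drought. OsWOX13 is a homeobox transcription factor of the WUSCHEL-related family. The promoter that drives the transgene, the number of independent lines and the number of plants per library are not given in the labels. By their names both lines carry an OE13 construct, and both were under drought, with no wild type and no watered plants. By its name the second line differs both in the 2KR form and in the oswox13-1 background, and the contributions of these cannot be told apart. Nothing in the labels says that libraries came from separate plants, so the p-values measure the spread between libraries, which may be technical.

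Expression was deposited as FPKM, fragments scaled to gene length and library total, which summed to between 931335 and 941593 per library. Between 3973 and 4819 genes per library were listed at 0, the most in OE13-2KR/oswox13-1 replicate 2. Light-harvesting proteins, a leaf marker, summed over 15 genes to 5672 and 2529 FPKM in OE13-2KR/oswox13-1 and to 8270 and 4260 in OE13, and 13 to 15 of the genes were above 0. The description words for the rubisco small chain matched 1 row, listed at 0 in all libraries, as was the shoot meristem gene OSH15. Small chain genes described in other words were not sought. Summed FPKM of 11 genes described as seed glutelins lay between 75.4 and 104. The libraries were of bulk leaf, so fewer dividing cells and less RNA per cell cannot be told apart.

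Differences below are OE13-2KR/oswox13-1 minus OE13 on the log2(FPKM + 1) scale, fitted with limma over the 20174 genes with a mean of at least 1 FPKM. Over all of them 1 gene, 0.00496%, passed an adjusted p of 0.05, and it was not a member. Unadjusted p was under 0.05 and the gene lower in OE13-2KR/oswox13-1 for 12.0%, and higher for 8.00%. Both OE13-2KR/oswox13-1 libraries lay below both OE13 libraries for 32.8% of genes and above them for 23.4%, so the lines did not overlap for 56.2%. Unadjusted p was under 0.05 in either direction for 20.0%. The median difference of all genes was -0.08, and quantile normalisation of the libraries moved it by 0.12 to 0.03.

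Of the 122 histone, cyclin, licensing and kinase genes, 73 reached the expression minimum. Estimates were negative for 54 and positive for 19, with a median of -0.20. Over all 20174 genes tested, 11462 estimates were negative and 8712 positive, which is the background for the sign counts given below. Relative to the median of all genes, the medians were -0.08 for histones, -0.12 for cyclins, -0.10 for licensing genes and -0.18 for kinases and partners, and -0.04, -0.16, -0.02 and -0.17 after quantile normalisation. At unadjusted p under 0.05, 8 (10.96%) were lower in OE13-2KR/oswox13-1 and 4 (5.48%) higher, near or below the shares of all genes. These counts moved when single libraries were left out, and so did the counts over all genes. The comparison of these shares with all genes therefore holds for the fit to all libraries only. None passed limma's adjusted threshold, and the lowest limma adjusted p was 0.187. Both OE13-2KR/oswox13-1 libraries lay below both OE13 libraries for 26 genes (35.6%) and above them for 8 (10.96%). For 57 of the 73 the estimate was within 1.5-fold either way. The genes with the largest estimates were a P-type cyclin, a kinase inhibitor, a kinase regulatory subunit, a D-type cyclin and 1 H2A gene, all lower in OE13-2KR/oswox13-1, and 1 H3 gene, which was higher.

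**Figure D1:**
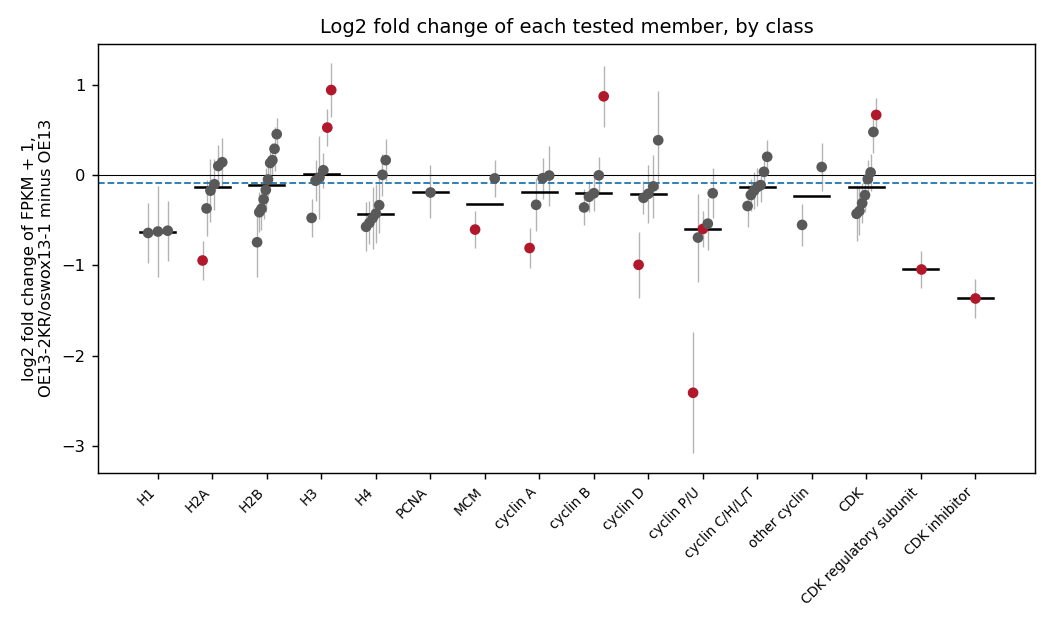
Difference between lines (OE13-2KR/oswox13-1 minus OE13, log2(FPKM + 1) scale) for each tested histone, cyclin, licensing and kinase gene by class, with SE as grey bars, class medians as black bars, the all-gene median (-0.08) as a dashed line and genes at unadjusted p under 0.05 in red. H1 genes lie together near -0.62, H2B and H3 genes lie on both sides of 0, and OsCYCP4 (-2.41) lies lowest.

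Among the 53 histone genes 32 were tested, and their estimates were negative for 21 and positive for 11. Their median was -0.17, against -0.08 for all genes, and it became -0.05 without OE13-2KR/oswox13-1 replicate 2, -0.27 without its replicate 1, -0.30 without OE13 replicate 1 and -0.08 without OE13 replicate 2. Unadjusted p was under 0.05 for 1 lower gene (3.13%) and 2 higher genes (6.25%), both below the shares of all genes. The number of histone genes at unadjusted p under 0.05 moved with the library left out, as it did for all genes. That comparison with all genes therefore holds for the fit to all 4 libraries only. The groups did not overlap for 8 lower (25.0%) and 4 higher (12.5%) histone genes, below the 32.8% and 23.4% of all genes. By class the median estimate was -0.62 for 3 H1 genes, -0.14 for 6 H2A genes, -0.11 for 10 H2B genes, 0.01 for 6 H3 genes and -0.43 for 7 H4 genes. Quantile normalisation turned the H2A and H2B medians to 0.03 and 0.04, near the all-gene median under that scaling, while those of H1 and H4 became -0.55 and -0.21.

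H2A was carried by a single gene. Os05g0461400, described as similar to H2A.2.1 and located at chr5:22656839-22658009 on the minus strand of IRGSP 1.0, had 170 and 127 FPKM in OE13-2KR/oswox13-1 against 282 and 287 in OE13. Both OE13-2KR/oswox13-1 libraries lay well below the OE13 libraries, which were close to each other. The limma estimate was -0.95 (SE 0.21, unadjusted p = 0.00568, adjusted p = 0.194), the lowest p among histones. This gene made up between 83.2% and 90.5% of the summed FPKM of the 13 H2A genes in each library. The H2A sum was higher in OE13 by 138 FPKM, of which 136 came from this gene. The other 12 H2A genes summed to 30.7 and 25.7 FPKM in OE13-2KR/oswox13-1 and to 29.5 and 30.98 in OE13, so their groups overlapped. Os07g0545300, another H2A gene, had 3.90 and 3.42 against 3.65 and 6.76 FPKM, and only OE13 replicate 2 stood out. 7 of the 13 H2A genes stayed under the expression minimum.

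H3 was carried by a pair of genes. Os06g0130900 gave 47.7% of the mean H3 sum and had 236 and 270 FPKM in OE13-2KR/oswox13-1 against 225 and 263 in OE13, so the lines overlapped. An opposite-strand gene overlaps 83.8% of its locus, and reads of the pair cannot be told apart, since no source used here says that counting used the strand. Os03g0390600 gave 44.7% of the H3 sum and had 220 and 171 FPKM against 250 and 292, lower in both OE13-2KR/oswox13-1 libraries (estimate -0.47, SE 0.21, limma adjusted p = 0.289, and -0.29 without OE13-2KR/oswox13-1 replicate 2). The remaining H3 genes were minor, and the pair with low p values lay the other way. Os05g0438700 (chr5:21499449-21500179) had 13.1 and 14.5 FPKM in OE13-2KR/oswox13-1 against 4.998 and 8.86 in OE13, an estimate of 0.94 (SE 0.29, limma adjusted p = 0.210) and of 0.58 without OE13 replicate 1. Os01g0866200 (chr1:37513878-37514462) had 6.14 and 6.37 FPKM against 4.13 and 3.94, an estimate of 0.53 (SE 0.20, limma adjusted p = 0.246). For both genes the groups did not overlap. CENH3, the centromeric H3 that marks where the kinetochore forms, had 8.22 and 14.2 against 17.0 and 7.04 FPKM, with more spread within each line than between them. 9 of the 15 H3 genes stayed under the minimum, the highest of them at 0.493 FPKM in any library.

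**Figure D2:**
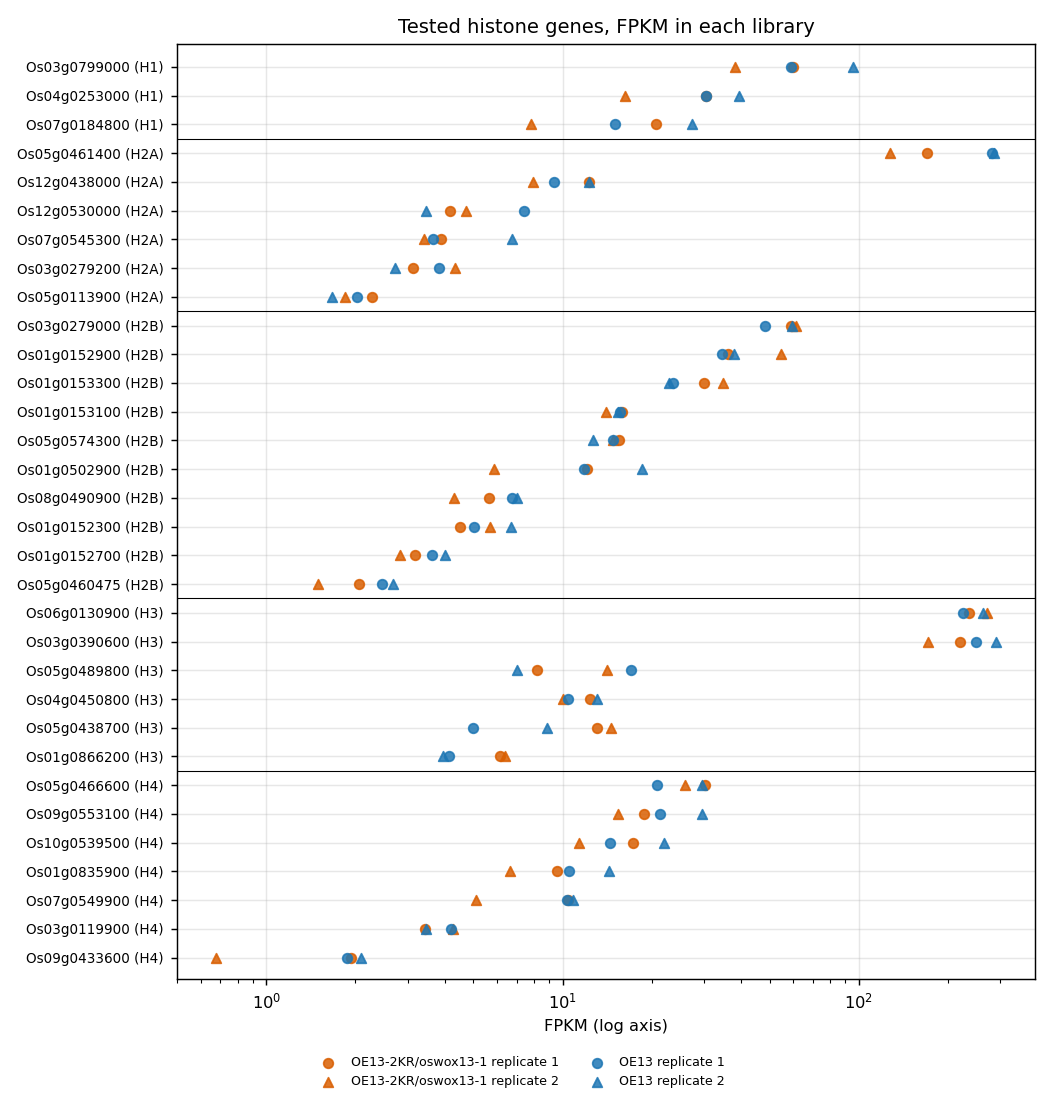
FPKM (log axis) of each tested histone gene in the 4 libraries, ordered by class; orange marks OE13-2KR/oswox13-1 and blue OE13, circles replicate 1 and triangles replicate 2. Os05g0461400 leads H2A with 127 to 287 FPKM, and Os06g0130900 and Os03g0390600 lead H3.

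H1 genes shared a pattern by library more than by line. Os03g0799000, the most abundant, had 59.8 and 38.3 FPKM in OE13-2KR/oswox13-1 against 59.2 and 95.4 in OE13. Os04g0253000 had 30.4 and 16.3 against 30.5 and 39.5 FPKM. Os07g0184800, described as a variant H1, had 20.7 and 7.83 against 15.1 and 27.4 FPKM. Opposite-strand genes overlap 77.6% and 55.6% of the second and the third of these loci. In all 3 genes OE13-2KR/oswox13-1 replicate 2 was the lowest library and OE13 replicate 2 the highest, while the replicate 1 libraries of both lines were close for the first and second gene. Their estimates lay between -0.64 and -0.62 with SE from 0.33 to 0.50, and the lowest limma adjusted p was 0.333. Without OE13 replicate 2 the estimate for Os03g0799000 was -0.30, and without OE13-2KR/oswox13-1 replicate 2 those for Os04g0253000 and Os07g0184800 were -0.19 and 0.025. The same libraries were the lowest and the highest for 18 (56.3%) and 17 (53.1%) of the 32 histone genes, and for 39.2% and 31.4% of all genes. H4 showed it for 5 of its 7 tested genes in each case. OE13-2KR/oswox13-1 replicate 2 was also the library with the most genes at 0 and the lowest light-harvesting sum, whose part in the result was not tested.

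The H2B genes showed no common direction. 5 of the 10 tested genes lie together at chr1:2820074-2872826, within 52753 bp, with mean levels from 3.41 to 40.8 FPKM. Of this cluster Os01g0153300 had 30.0 and 34.8 FPKM in OE13-2KR/oswox13-1 against 23.7 and 22.9 in OE13, higher without overlap (estimate 0.45, SE 0.18, limma adjusted p = 0.254). In the same cluster Os01g0152700 had 3.17 and 2.83 against 3.63 and 4.01 FPKM, lower without overlap. The most abundant H2B gene, Os03g0279000, had 59.1 and 61.2 against 48.1 and 59.6 FPKM, with overlap. Os01g0502900 had 12.1 and 5.85 against 11.8 and 18.5 FPKM and again was lowest in OE13-2KR/oswox13-1 replicate 2 (estimate -0.74, SE 0.39, limma adjusted p = 0.340, and -0.28 without that library).

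H4 is among the most conserved of proteins. Of its genes, Os09g0553100 had 18.9 and 15.4 FPKM in OE13-2KR/oswox13-1 against 21.3 and 29.5 in OE13. Os01g0835900 had 9.54 and 6.63 against 10.6 and 14.4 FPKM. Both were lower in OE13-2KR/oswox13-1 without overlap, with estimates of -0.53 (SE 0.24) and -0.57 (SE 0.27) and limma adjusted p of 0.289 and 0.303. Without OE13 replicate 2 the first was -0.30, and without OE13-2KR/oswox13-1 replicate 2 the second was -0.34. The most abundant H4 gene, Os05g0466600, had 30.2 and 25.9 against 20.9 and 29.5 FPKM, with overlap and an estimate of 0.17.

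Near-identical histone genes can share reads, and no source used here says how such reads were assigned, so values of single copies are uncertain. A class sum depends less on how reads were split within the class, but still on the lengths of the copies and on whether shared reads were dropped. Summed H2A was 201 and 153 FPKM in OE13-2KR/oswox13-1 against 311 and 318 in OE13, with a wide gap between the lines. H3 sums were 497 and 487 against 512 and 589 FPKM, lower in OE13-2KR/oswox13-1 by a smaller margin. The sums of H1, H2B and H4 overlapped between lines: 111 and 62.6 against 106 and 163 for H1, 184 and 200 against 166 and 187 for H2B, and 92.4 and 70.4 against 84.4 and 113 for H4. Summed over all 53 histone genes the level was 1029 ± 80.0 FPKM (SD, n = 2) in OE13-2KR/oswox13-1 and 1275 ± 135 (SD, n = 2) in OE13, a log2 ratio of -0.31. Without Os05g0461400 the log2 ratio was -0.17, and with it but without OE13 replicate 2 it was -0.20. The sums are given as values with no test, and an exact permutation test of 2 against 2 libraries could not go below 0.333.

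**Figure D3:**
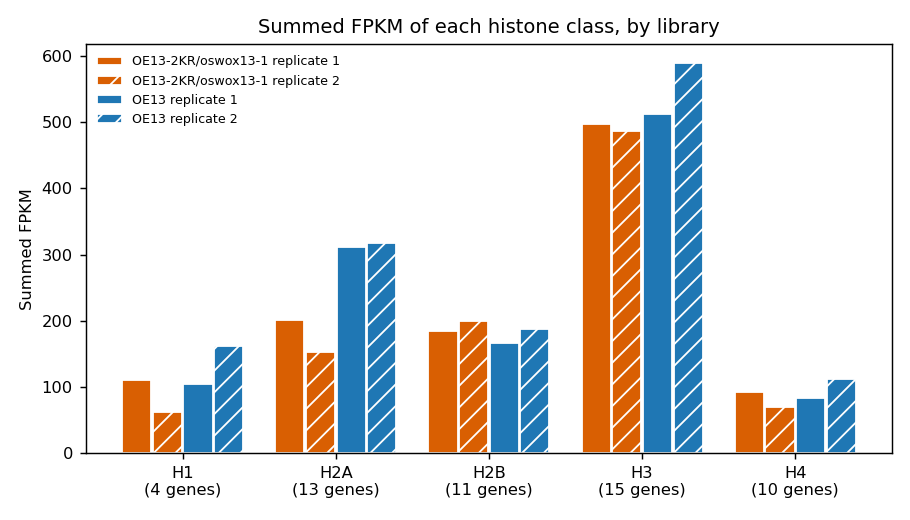
Summed FPKM per histone class (H1, H2A, H2B, H3, H4) as bars for the 4 libraries, orange for OE13-2KR/oswox13-1 and blue for OE13, replicate 2 hatched. The H2A sums of 153 and 201 in OE13-2KR/oswox13-1 lie below 311 and 318 in OE13, and the H2B sums overlap.

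Replication licensing genes were few and low. Of 6, 3 passed the minimum, and OsMCM3, OsMCM4 and OsMCM10 did not, with at most 0.213 FPKM in any library. Os05g0173700 (chr5:4412922-4414787), described as similar to an MCM3 homolog (fragment), had 9.73 and 9.90 FPKM in OE13-2KR/oswox13-1 against 13.7 and 17.3 in OE13. It was lower without overlap (estimate -0.60, SE 0.21, limma unadjusted p = 0.0322, adjusted p = 0.224). With 1 library left out its estimate ranged from -0.76 to -0.44. OsMCM2, a subunit of the replicative helicase, had 3.78 and 4.16 against 4.04 and 4.14 FPKM (chr11:17046950-17052914). Its estimate was -0.04 with a 95% interval from -0.56 to 0.49, so differences within that interval were not detectable here, and quantile normalisation turned it to 0.17. OsPCNA (chr2:34351407-34353530) had 2.51 and 1.91 against 1.95 and 3.47 FPKM, with an estimate of -0.18 and an interval from -0.92 to 0.55, and 0.01 after quantile normalisation. The lines overlapped for OsMCM2 and OsPCNA. They did not overlap for the MCM3 homolog, as they did not for 56.2% of all genes.

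Cyclins were tested for 28 of 49 genes, with estimates negative for 23 and positive for 5 and a median of -0.20. At unadjusted p under 0.05, 4 (14.3%) were lower in OE13-2KR/oswox13-1, against 12.0% of all genes, and 1 (3.57%) was higher, against 8.00%. The groups did not overlap for 12 lower (42.9%) and 2 higher (7.14%) genes, against 32.8% and 23.4% of all genes. The numbers of cyclins at unadjusted p under 0.05 moved with the library left out, as they did for all genes. Levels below the minimum left 3 of 7 A, 5 of 10 B and 7 of 12 D types untested.

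The P types, also called U types, resemble the yeast cyclin Pho80, which acts in phosphate signalling. All 5 tested of 8 had negative estimates, with a median of -0.60. At unadjusted p under 0.05, 2 of these 5 genes (40.0%) were lower, against 12.0% of all genes. OsCYCP4 (Os04g0544200, chr4:27251810-27254199, minus strand) had 12.8 and 2.69 FPKM in OE13-2KR/oswox13-1 against 26.96 and 50.3 in OE13. The groups did not overlap, yet the libraries of each line differed widely from each other. The estimate was -2.41 (SE 0.67, limma unadjusted p = 0.0140, adjusted p = 0.199), and without OE13-2KR/oswox13-1 replicate 2 it was -1.46. CycU3 (Os05g0398000, chr5:19363632-19365848) had 51.5 and 60.3 against 93.2 and 77.1 FPKM, lower without overlap (estimate -0.60, SE 0.20, limma adjusted p = 0.216). A second gene named OsCYCP4, Os02g0125400, lies outside the description words and was added after its values were seen. It had 0.623 and 0.215 against 1.45 and 2.39 FPKM. The authors' deposited table lists it with a log2 fold change of 1.64 and an adjusted p of 0.149, marked up, the mark of 1107 genes with a higher mean FPKM in OE13 among the 1112 that could be paired.

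Among the mitotic cyclins, the A type CycA1 (Os12g0298950, chr12:11867131-11871436, minus strand) had 11.4 and 9.05 FPKM in OE13-2KR/oswox13-1 against 16.6 and 20.8 in OE13. It was lower without overlap, with an estimate of -0.81 (SE 0.23, limma adjusted p = 0.199). Os01g0233100, another A type, had 0.914 and 0.867 against 0.901 and 1.96 FPKM, with overlap. Another gene named CycA1, Os01g0233500, had 1.58 and 2.38 against 1.30 and 2.82 FPKM, also with overlap (estimate -0.0045, SE 0.33). The B type CycB1 (Os01g0805600, chr1:34149458-34151206) lay the other way at low levels, 4.02 and 1.86 against 1.28 and 0.872 FPKM. Its estimate was 0.87 (SE 0.34, limma adjusted p = 0.247) and 0.47 without OE13-2KR/oswox13-1 replicate 1. The estimates for the A and B types were each tested against 0 and not against each other.

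The most abundant B types form a group of 3 genes at chr2:34089732-34155580, with 56.3 to 151 FPKM across the libraries. Os02g0801200 had 123 and 120 FPKM in OE13-2KR/oswox13-1 against 136 and 151 in OE13 (estimate -0.24, SE 0.17). Os02g0801300 had 73.2 and 56.3 against 80.8 and 84.4 FPKM (estimate -0.36, SE 0.20). Both lay lower without overlap, and the limma adjusted p was 0.457 and 0.361. All 3 are described only by likeness to cyclin B, and their level in leaves was far above that of OsSTA157, another B type, at 4.02 to 4.42 FPKM.

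Of the D types, which act at the start of the cycle, CycD5 (Os03g0203800) was the most abundant, at 41.1 and 37.5 against 50.6 and 43.5 FPKM, lower without overlap (estimate -0.25, SE 0.18, limma adjusted p = 0.464). Another gene named CycD5, Os03g0617500, had 9.06 and 2.24 against 3.33 and 3.41 FPKM, with overlap (estimate 0.39, SE 0.54). CycD4 (Os08g0479300, chr8:23648009-23651073) had 0.859 and 0.155 against 1.33 and 2.66 FPKM, lower without overlap at levels near the minimum (estimate -0.99, SE 0.36, limma adjusted p = 0.232, and -0.65 without OE13-2KR/oswox13-1 replicate 2). With a pseudocount of 0.1 in place of 1 the CycD4 estimate was -2.004 (limma adjusted p = 0.259). The cyclin with the highest level of all was Os05g0237100 (chr5:8368767-8370280), described by its C-terminal domain only, at 267 and 195 against 308 and 364 FPKM. It was lower without overlap (estimate -0.55, SE 0.23, limma adjusted p = 0.269, and -0.33 without OE13-2KR/oswox13-1 replicate 2). C, H, L and T types, which act mostly in transcription and splicing, gave no low p: their 7 tested genes had a median of -0.13. CycT1 (Os11g0157100), for example, had 82.3 and 90.7 against 79.3 and 89.4 FPKM, with overlap.

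**Figure D4:**
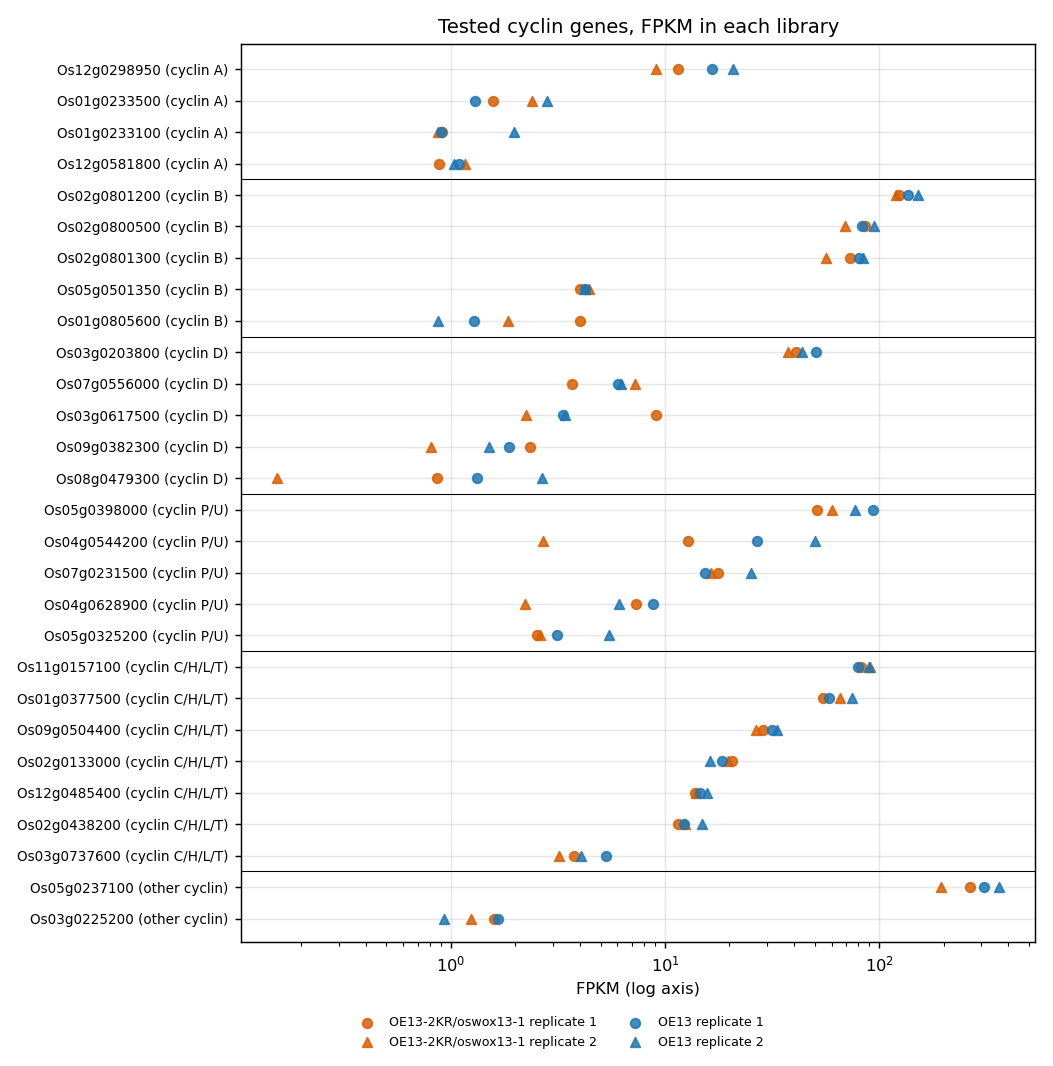
FPKM (log axis) of tested cyclin genes in the 4 libraries, by type, orange for OE13-2KR/oswox13-1 and blue for OE13, circles for replicate 1 and triangles for replicate 2. OsCYCP4 spans from 2.69 to 50.3 FPKM, while the 3 cyclin B-like genes of chromosome 2 stay between 56.3 and 151.

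Cyclin-dependent kinases and their partners gave 10 tested of 14 genes, 7 with negative and 3 with positive estimates and a median of -0.27. At unadjusted p under 0.05, 2 (20.0%) were lower and 1 (10.0%) higher, on 10 genes, against 12.0% and 8.00% of all genes. The pair that lay lower are partners, not kinases. OsiICK4 (Os09g0459900, chr9:17390977-17392630, minus strand), an inhibitor of the kinases described as similar to inhibitor 6, had 1.02 and 0.838 FPKM in OE13-2KR/oswox13-1 against 4.07 and 3.85 in OE13. The regulatory subunit Os03g0146300 (chr3:2571794-2572787), a small protein of the CKS type that docks on the kinase, had 3.85 and 3.54 against 8.70 and 8.61 FPKM. In both genes the libraries of a line were close to each other and the groups far apart. Their estimates were -1.36 (SE 0.22, limma unadjusted p = 0.00122) and -1.04 (SE 0.20, unadjusted p = 0.00308), each with an adjusted p of 0.187, the lowest among the members. With 1 library left out the estimates ranged from -1.43 to -1.30 for OsiICK4 and from -1.09 to -0.995 for the regulatory subunit. For the H2A gene Os05g0461400 the range was -1.15 to -0.74.

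The authors' deposited table marks OsiICK4 up with a log2 fold change of 1.38 and an adjusted p of 0.186, and the regulatory subunit with 0.84 and 0.227. That list holds 1207 genes, of which 1112 could be paired with a gene measured here. Among the paired genes 2 were members (1.16% of 173) and 0 were histones. The others were not looked up. The list could be paired with 3.295% of all genes measured. Of the 8 tested kinases 1 (12.5%) was higher at unadjusted p under 0.05, against 8.00% of all genes, and 0 were lower. Os08g0112500 (chr8:662169-667531, minus strand), a kinase-like protein, had 22.9 and 22.05 FPKM in OE13-2KR/oswox13-1 against 12.9 and 14.7 in OE13, higher without overlap (estimate 0.67, SE 0.19, limma adjusted p = 0.199). CDKB (Os01g0897000), a plant kinase of mitosis, had 5.98 and 8.16 against 5.004 and 4.50 FPKM (estimate 0.48, limma adjusted p = 0.323, and 0.28 without OE13-2KR/oswox13-1 replicate 2). Os01g0367700, the most abundant kinase-like gene, had 34.9 and 39.5 against 32.1 and 41.1 FPKM, with overlap. The A-type kinase cdc2Os-1, the main driver of the plant cycle, had 9.49 and 11.4 against 11.8 and 9.80 FPKM, also with overlap, and an opposite-strand gene overlaps 85.1% of its locus.

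**Figure D5:**
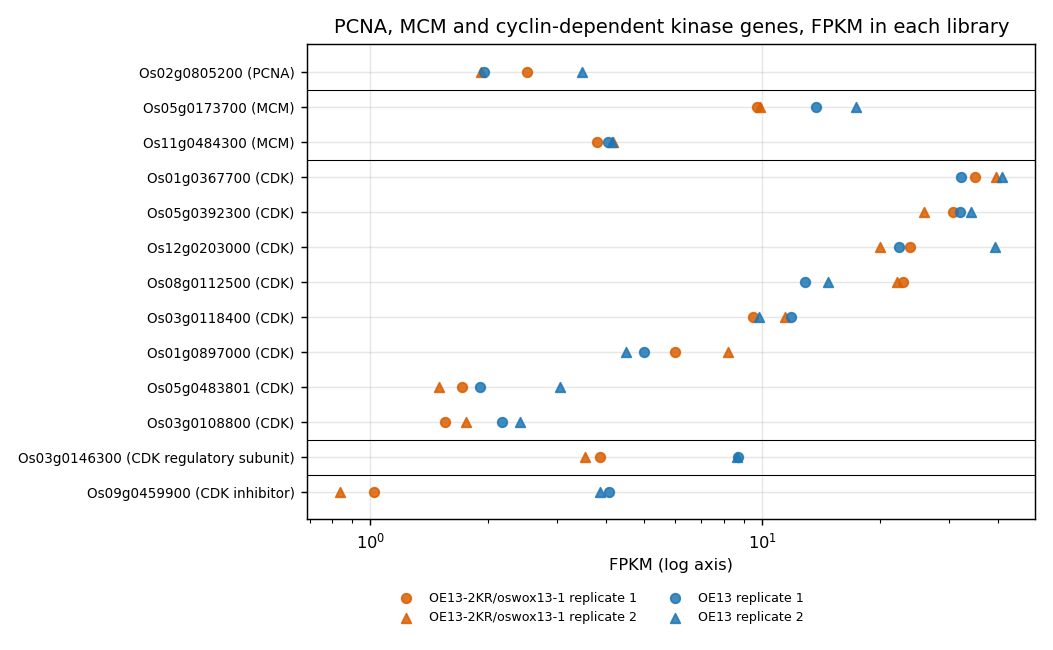
FPKM (log axis) of licensing, kinase, inhibitor and regulatory subunit genes in the 4 libraries, with colours and shapes as in the plot of cyclins. OsiICK4 and Os03g0146300 are lower in both OE13-2KR/oswox13-1 libraries (0.838 to 3.85 FPKM) than in OE13 (3.85 to 8.70 FPKM).

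Genes of the same processes that the description words miss gave a mixed picture. Of 75 such genes 39 were tested, with a median of -0.07 (0.03 after quantile normalisation), 6 (15.4%) lower and 3 (7.69%) higher at unadjusted p under 0.05, near the shares of all genes. All 5 tested genes of origin licensing had negative estimates, with a median of -0.35, among them OsCDC6, which loads the MCM ring, at 11.1 and 10.4 against 16.1 and 19.3 FPKM (estimate -0.66, SE 0.20, limma adjusted p = 0.205). At the fork 1 of 9 tested genes (11.1%) was lower and 2 (22.2%) higher at unadjusted p under 0.05. The shares of all genes were 12.0% and 8.00%. OsPoldelta1, the catalytic subunit of polymerase delta, had 10.3 and 11.9 FPKM in OE13-2KR/oswox13-1 against 6.55 and 5.91 in OE13 (estimate 0.74, SE 0.21), higher without overlap. OsFEN-1b, a nuclease that trims lagging-strand fragments, had 34.8 and 22.2 against 48.8 and 56.4 FPKM (estimate -0.89, SE 0.26), lower without overlap, and -0.58 without OE13-2KR/oswox13-1 replicate 2. Limma adjusted p was 0.198 and 0.205 for these genes.

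Of the 9 tested mitosis genes among these, 3 had negative and 6 positive estimates, with a median of 0.04. The pair named here, for their low p, are the neighbours Os03g0638000 and Os03g0637900, both described as centromere protein-like. They had 1.29 and 0.731 against 3.13 and 3.09 FPKM, and 2.92 and 1.13 against 5.72 and 6.61 FPKM. Each was lower in OE13-2KR/oswox13-1 without overlap, with estimates of -1.05 (SE 0.25) and -1.31 (SE 0.35) and limma adjusted p of 0.194 and 0.195. With a pseudocount of 0.1 the estimate for the first was -1.58. The authors' deposited table marks the second up with a log2 fold change of 1.11 and an adjusted p of 0.325. Genes described with E2F, DP or retinoblastoma had a median of 0.11 over 10 tested genes. E2F and retinoblastoma proteins switch the cycle's transcription on and off. The list also holds an E2F target, an E2F-associated phosphoprotein and OsSNI1, which were matched by the letters E2F.

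A further 19 genes carry member-like names without the description words and were listed after their values were seen. Of 15 tested, 4 (26.7%) had unadjusted p under 0.05 and were lower, and 1 (6.67%) was higher, against 12.0% and 8.00% of all genes. OsMCM9 had 25.9 and 22.6 FPKM in OE13-2KR/oswox13-1 against 42.0 and 38.5 in OE13 (estimate -0.71, SE 0.18, limma adjusted p = 0.194). A gene named H2B, Os01g0149600, had 9.17 and 13.7 against 5.62 and 5.89 FPKM (estimate 0.86, SE 0.25, limma adjusted p = 0.205). The groups did not overlap for either gene, OsMCM9 being lower and the H2B gene higher in OE13-2KR/oswox13-1. The kinase inhibitors among these names were KRP1 and OsiICK6, both more abundant than OsiICK4. KRP1 had 34.2 and 31.1 against 32.9 and 31.5 FPKM, with overlap (estimate 0.017, SE 0.17). OsiICK6 had 35.3 and 23.4 against 49.0 and 43.5 FPKM, lower without overlap (estimate -0.66, SE 0.25, limma adjusted p = 0.237).

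The F-box proteins with a cyclin-like domain mark proteins for breakdown and are not known as partners of the kinases. Of these 46 genes 17 were tested, with a median of 0.05. None had an unadjusted p under 0.05, against 20.0% of all genes in either direction. Of the 5 other proteins 3 were tested. Among these, 1 (33.3%), described as similar to a tetracycline transporter, was lower at unadjusted p under 0.05, against 12.0% of all genes. In all, 80 of the 173 genes stayed under the expression minimum and 8 were listed at 0 in all libraries.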

How the data were processed

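Leaf RNA of 2 lines with 2 libraries each was sequenced as paired reads of 150 nt from TruSeq libraries, per the labels' protocols, although the labels give the molecule as genomic DNA. Per the file headers, the authors deposited an FPKM value for each gene in each library, with gene coordinates and descriptions. No source used here says which tool made the FPKM. HISAT2 2.2.1, featureCounts 2.0.0 and DESeq2 1.38.3 appear in the submitters' processing notes, as does the build, IRGSP 1.0. The authors' deposited list of genes marked up gives a log2 fold change, a p-value, a −log10 of the p-value and a linear fold, per the file headers. 2 unlabelled columns were not used. Read depth is unknown, so no counting interval is given.

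Differences were fitted in R 4.3.3 by limma 3.58.1 with a variance trend, using log2(FPKM + 1), which understates changes of low genes, for genes with a mean of at least 1 FPKM, with Benjamini-Hochberg adjustment over all 20174. Residual degrees of freedom were 2 and the prior added 3.30. The steps were tested on simulated data. Alternatives were another pseudocount, filter, scaling and variance prior, a replicate block, leaving out genes covered on the other strand and leaving out each library. Replicate numbers are not known to pair libraries. Named genes are, per class, the 2 tested members with the smallest p and the most abundant one, and 5 from the list outside the rule. CENH3, CDKB, cdc2Os-1, CycT1 (Os11g0157100), OsSTA157, Os03g0390600, Os01g0152700, Os07g0184800 and Os02g0125400 were chosen after their values were seen. So were Os01g0233500, Os03g0617500, KRP1 and OsiICK6. The members and lists were chosen with earlier results of these data known. The meristem gene OSH1 and the root gene RCc3 were sought by identifier and matched no row. Protein types and promoter motifs were not analysed here.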

Additional observations from a re-analysis of the deposited data

How the results depend on the processing

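All estimates are OE13-2KR/oswox13-1 minus OE13. 1 gene of all those tested passed the adjusted threshold, and 0 did without the filter on low values, with the replicate block or without genes covered on the other strand, and 2 with quantile normalisation. Leaving out 1 library gave 0 to 5. Unadjusted p was under 0.05 for 2415 lower and 1613 higher genes, and for 2122 and 1239 with the replicate block. Members lower at unadjusted p numbered 8, 5 with the replicate block, and 4 to 17 when 1 library was left out. Leaving out OE13-2KR/oswox13-1 replicate 1 gave 17, OE13-2KR/oswox13-1 replicate 2 gave 5 and OE13 replicate 2 gave 4. Members higher numbered 4 and ranged from 0, without OE13 replicate 1, to 4, with 2 without OE13 replicate 2. The counts over all genes at unadjusted p under 0.05 also moved with the library left out. The member counts with 1 library left out are therefore not read as a difference between members and all genes. Over all genes, the deviations of the replicate 1 libraries from the means of their own lines correlated at r = -0.09. The block therefore rests on a number only.

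The histone median became -0.011 with quantile normalisation, and that of kinases and partners -0.14. Without the filter the latter was -0.13, and with a minimum of 5 FPKM it was -0.044, while the licensing median was -0.60 on fewer genes. The median of the genes outside the description words was -0.0097 without the filter, -0.0048 with a minimum of 5 FPKM, -0.0017 with median ratio scaling and 0.032 with quantile normalisation. With 1 library left out the medians ranged from -0.30 to -0.046 for histones, -0.30 to -0.15 for cyclins, -0.48 to -0.022 for licensing genes, -0.32 to -0.16 for kinases and -0.089 to 0.0043 for the genes outside the words. With a pseudocount of 0.1 the low genes Os08g0479300 (CycD4), Os03g0638000 and Os01g0233100 moved to -2.004, -1.58 and -0.54. Estimates near 0 changed sign. Os11g0484300 (OsMCM2) became 0.031 with median ratio scaling and 0.17 with quantile normalisation, Os06g0130900 -0.032 and Os02g0805200 (OsPCNA) 0.012 with the latter. With 1 library left out they ranged from -0.090 to 0.018, from -0.059 to 0.17 and from -0.48 to 0.11. The same range was -0.14 to 0.20 for Os01g0367700, -0.072 to 0.40 for Os05g0466600 and -0.74 to 0.00088 for Os07g0545300. The cause was not tested for any of these. Counting the F-box proteins with the cyclins, an alternative chosen after seeing the data, gave -0.16 for the cyclin median. The lines did not overlap for any of the 12 members at unadjusted p under 0.05. Leaving out 1 library therefore could not change their direction. Read depth is unknown, and 2 libraries per line limit the precision.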
